A study of Mus musculus with 12 samples.

Results

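The expression of 10 pigment cell genes (Tyr, Tyrp1, Dct, Pmel, Mitf, Mlana, Slc45a2, Oca2, Rpe65 and Ttr) was examined, out of 38720 genes listed in the deposited tables of newborn mouse retina. The genes were chosen by their mean normalized reads, because pigment transcripts were higher in the knockout than in wild type. That comparison is therefore described for them without a test, and nothing is supported with it. RNA had been sequenced from P0 pups of strain C57/BL6, either wild type (WT) or Math5Cre+;Ezh2f/f (mKO), in which Cre recombinase inserted at the Math5 locus deletes the part of Ezh2 that encodes the SET domain, the catalytic domain of this histone H3 lysine 27 methyltransferase. Retinas were dissociated with papain, and retinal ganglion cells (RGCs) were separated with magnetic beads against CD90 (Thy-1) from the other retinal cells (non-RGCs). Each of the 4 groups (mKO RGCs, WT RGCs, mKO non-RGCs, WT non-RGCs) had 3 libraries from separate RNA extractions. Whether each extraction came from different pups or from pooled pups is not given in the sources used here, so errors measure the spread between these samples. Math5-Cre acts in part of the RGCs only and in few other retinal cells, so mKO fractions mix Ezh2-deleted and undeleted cells. The labels call the controls wild type, while the study's methods name littermate floxed mice as its usual controls, and whether these WT pups carried floxed alleles is uncertain.

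Melanin, the dark pigment of the eye, is made inside membrane-bound organelles called melanosomes. In the eye, melanosomes are formed by the retinal pigment epithelium, a sheet behind the neural retina that comes from the optic cup, by the pigmented epithelium of ciliary body and iris, and by melanocytes of the choroid and iris, which come from the neural crest. Mitf, a transcription factor, binds E-box-like sequences in the promoters of melanogenic genes, Tyr, Tyrp1 and Dct encode the enzymes of melanin synthesis, Pmel forms the fibrils on which melanin is laid down, and Slc45a2 and Oca2 are melanosome membrane transporters. The neural retina, from which the cells were taken, is not pigmented.

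Promoter sequences of the melanin enzymes are shown because they share a letter string known from Mitf target promoters. Whether Mitf acts on these genes in these samples was not tested. RefSeq promoter windows (GRCm38.p6) matched 6 of the 10 genes. The M-box core TCATGTG was searched on both strands (reverse complement CACATGA) in the 250 bases before the annotated start. It was present for Tyr, Tyrp1 and Dct, and is marked in capitals in the following sequences, written 5′ to 3′ on the strand of the gene.
Tyr, chr7:87493513-87493762, minus strand: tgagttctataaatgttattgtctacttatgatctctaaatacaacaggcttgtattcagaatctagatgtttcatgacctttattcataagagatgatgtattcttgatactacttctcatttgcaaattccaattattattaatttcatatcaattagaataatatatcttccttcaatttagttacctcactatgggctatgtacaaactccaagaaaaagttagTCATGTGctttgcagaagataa
Tyrp1, chr4:80834154-80834183, plus strand: gtggggagggagTCATGTGctgcctagtag
Dct, chr14:118052247-118052496, minus strand: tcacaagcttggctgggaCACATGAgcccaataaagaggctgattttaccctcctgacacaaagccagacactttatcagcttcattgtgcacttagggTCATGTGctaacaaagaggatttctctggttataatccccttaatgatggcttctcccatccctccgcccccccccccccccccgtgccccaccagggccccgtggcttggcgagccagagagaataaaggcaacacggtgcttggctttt
For Tyrp1 only 30 bases around the match are given, because the gene model used for the annotation starts inside its window. That model starts at chr4:80834123, so the Tyrp1 match lies downstream of its start and upstream of the RefSeq start only. The Tyr match spans positions -22 to -16 from the RefSeq start, the Tyrp1 match -47 to -41, and Dct has a match at -151 to -145 and another, on the opposite strand, at -232 to -226. The same string occurred in 3.25% of all 32851 windows. The windows of Rpe65, Mitf and Oca2 did not hold it. The E-box CACGTG, in 6.02% of all windows, occurred in no window of these genes, and TAATCC (reverse complement GGATTA), the core recognised by Otx factors, occurred in those of Rpe65, Dct and 1 of the Mitf starts, against 6.25% of all windows. A match of letters is a description and not a binding site.

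The deposited tables hold the mean of each group, and the reads of each library were recovered from the digits of these means. The libraries of a group are lettered by depth, with A having the most reads and C the fewest, and cannot be tied to the replicate numbers in the labels. Reads on genes numbered 10600964 to 13014004 in the 6 RGC libraries and 7139633 to 12828281 in the 6 non-RGC libraries. Values per library are normalized reads, which are reads divided by the authors' size factor. Ezh2 itself, as the check of the deletion, had 1354, 1476 and 1443 normalized reads in mKO RGCs against 1190, 1206 and 1678 in WT RGCs, and 1889, 2107 and 2509 in mKO non-RGCs against 2115, 2149 and 1683 in WT non-RGCs. The groups overlapped in both fractions; reads were summed over the whole gene, of which only a part is deleted, so these values do not check the labels.

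The 10 genes together took a small part of each library. They held 1492 to 2776 reads, or 0.0188% to 0.0216% of the reads on genes, in mKO non-RGCs, and 424 to 836 reads, or 0.00382% to 0.00722%, in WT non-RGCs. In RGCs they held 596 to 985 reads (0.00481% to 0.00757%) in mKO and 284 to 351 reads (0.00234% to 0.00331%) in WT. Every mKO library had a larger share than any WT library of the same fraction. In such bulk samples, more cells of a pigmented type and more RNA per cell cannot be told apart.

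**Figure D1:**
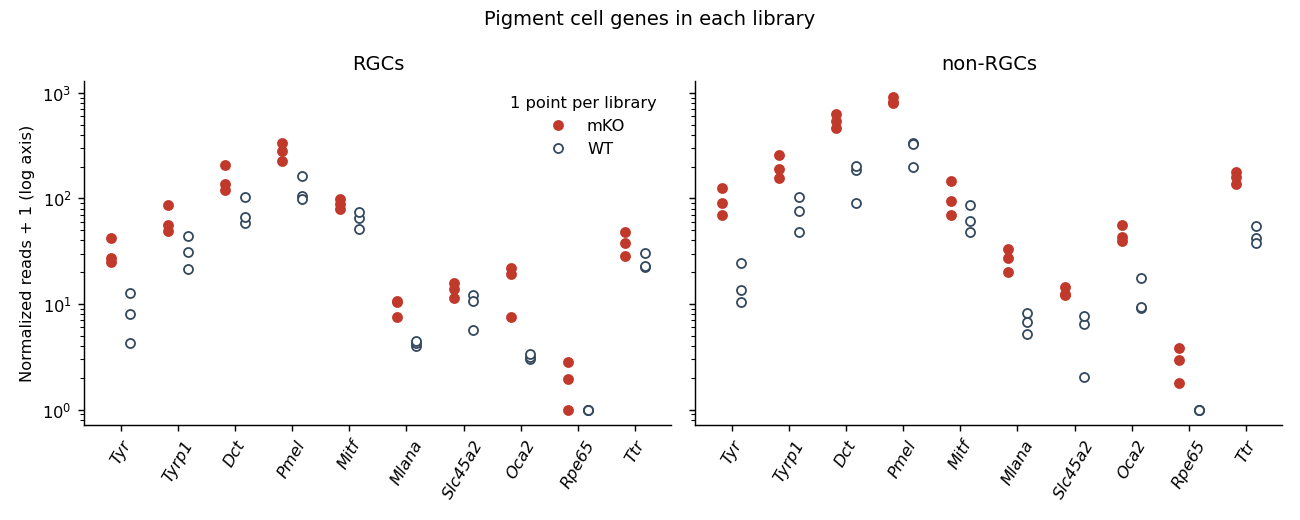
Normalized reads plus 1 (log axis) of the 10 pigment cell genes in each library of RGCs (left) and non-RGCs (right); filled points are mKO libraries and open points WT libraries. Pmel and Dct are the most abundant by reads, Rpe65 stays at 0 to 2 reads, and mKO points of Tyr, Tyrp1, Dct, Pmel, Mlana and Oca2 lie above all WT points in both fractions.

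Mitf (chr6:97807052-98021349), the transcription factor of the melanocyte and pigment epithelium programmes, differed least. In RGCs it had 98.6, 78.4 and 88.5 normalized reads in mKO libraries A to C and 64.9, 73.8 and 50.2 in WT. All mKO libraries were above the WT libraries, the closest pair being 78.4 against 73.8, and the ratio of means was 1.41 (log2 difference 0.50). Its non-RGC values were 146, 94.0 and 69.2 normalized reads in mKO and 60.5, 85.2 and 46.9 in WT, a ratio of 1.60 (log2 difference 0.65). Here the groups overlapped, since mKO library C was below WT library B.

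Tyr (chr7:87424771-87493512), which encodes tyrosinase, the rate-limiting enzyme of melanin synthesis, had the largest ratio of the melanin enzymes. In RGCs it had 41.0, 24.0 and 26.3 normalized reads in mKO and 7.10, 3.26 and 11.7 in WT. The ratio of means was 4.15 and the log2 difference 2.01. In non-RGCs it had 123, 90.2 and 69.2 normalized reads in mKO and 23.5, 12.6 and 9.38 in WT, a ratio of 6.22 and a log2 difference of 2.62. The groups were apart in both fractions. The GC content of Tyr exons was 37.2%, the lowest of the 10 genes, and with each library's trend with GC content removed the log2 difference in RGCs was 1.39.

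Tyrp1 (chr4:80834123-80851719), tyrosinase-related protein 1, which acts late in eumelanin synthesis, had 86.4, 55.3 and 48.0 normalized reads in mKO RGCs and 20.3, 30.4 and 43.2 in WT RGCs, a ratio of 2.02 (log2 difference 1.01). Its values in non-RGCs were 256, 188 and 155 in mKO and 74.9, 103 and 46.9 in WT, a ratio of 2.67 (log2 difference 1.44). The lowest mKO library was above the highest WT library in each fraction. In RGCs the margin was narrow, 48.0 against 43.2.

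Dct (chr14:118012790-118052244) encodes dopachrome tautomerase, which acts between the steps of the other enzymes. It had 205, 136 and 119 normalized reads in mKO RGCs and 57.8, 66.2 and 102 in WT RGCs, a ratio of 2.04 (log2 difference 1.02). In non-RGCs the values were 546, 465 and 633 in mKO and 184, 202 and 89.7 in WT, a ratio of 3.45 (log2 difference 1.85). The groups did not overlap in either fraction.

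Pmel (chr10:128704195-128720238), the fibril protein of the melanosome, was the gene with most reads. In RGCs it had 336, 282 and 225 normalized reads in mKO and 104, 97.7 and 163 in WT, a ratio of 2.31 (log2 difference 1.22). The non-RGC libraries had 817, 807 and 919 in mKO and 337, 326 and 199 in WT, a ratio of 2.95 (log2 difference 1.59). The mean in mKO non-RGCs was 848 ± 62.3 (SD, n = 3), against 288 ± 76.8 in WT. Exons of Pmel share 34 bases with Cdk2 and 105 with Dgka on the opposite strand, and reads there cannot be assigned without strand.

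Mlana (chr19:29697824-29708634), a melanosome protein also known as the melanocyte antigen MART-1, was rare. It had 11, 7 and 10 reads in mKO RGCs and 3 reads in each WT RGC library, which is the floor of 3 reads per library used here, so the ratio is given as a bound: it was at least 2.60-fold higher in mKO. In non-RGCs, Mlana had 26.2, 19.2 and 32.5 normalized reads in mKO and 7.22, 5.81 and 4.17 in WT, a ratio of 4.53 (log2 difference 2.00). The groups were apart in both fractions, on few reads in the WT libraries.

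Slc45a2 (chr15:11000721-11029233) and Oca2 (chr7:56239760-56536518) encode transporters that set the pH and ion content of the melanosome. Slc45a2 had 14.8, 12.9 and 10.4 normalized reads in mKO RGCs and 11.1, 9.77 and 4.67 in WT RGCs, groups that overlapped, with a ratio of 1.49 (log2 difference 0.58). In non-RGCs, Slc45a2 had 11.6, 13.4 and 11.3 in mKO and 5.41, 6.77 and 1.04 in WT, a ratio of 2.74 (log2 difference 1.48), without overlap. Oca2 had 24, 20 and 7 reads in mKO RGCs and 2 reads in each WT library, under the floor, and was at least 4.69-fold higher in mKO. Its normalized reads in non-RGCs were 55.5, 42.2 and 38.1 in mKO and 8.12, 16.5 and 8.34 in WT, a ratio of 4.13 (log2 difference 2.00).

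Rpe65 (chr3:159599175-159625321), the retinoid isomerase of the visual cycle and the defining enzyme of mature pigment epithelium, was at the floor in all 12 libraries. It had 1, 2 and 2 reads in mKO non-RGCs, 0, 2 and 1 in mKO RGCs, and 0 in all 6 WT libraries. Depth did not allow a fold to be given. Ttr (chr18:20665280-20674321) encodes transthyretin, a carrier of thyroid hormone and of retinol-binding protein made by choroid plexus and pigment epithelium. It had 47.1, 36.9 and 27.3 normalized reads in mKO RGCs and 21.3, 21.7 and 29.2 in WT RGCs, which overlapped, a ratio of 1.54 (log2 difference 0.59). In non-RGCs, Ttr had 158, 135 and 177 in mKO and 53.2, 41.6 and 36.5 in WT, a ratio of 3.58 (log2 difference 1.82), with a wide gap between the groups.

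**Figure D2:**
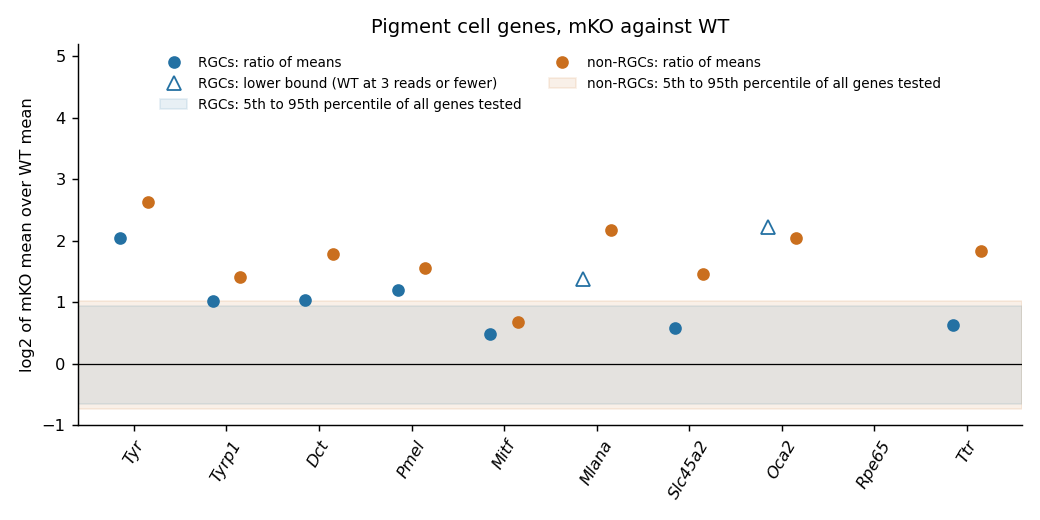
Log2 of the mKO mean over the WT mean for each gene in RGCs and non-RGCs; triangles are lower bounds where WT libraries had 3 reads or fewer, and shaded bands span the 5th to 95th percentile of the fitted log2 differences of all genes tested. Tyr lies highest among the ratios in both fractions, Mitf lowest, and Rpe65 has no value.

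The ratio of means was above 1 for the 9 genes with a ratio or bound in both fractions. The median was 2.04-fold in RGCs and 3.45-fold in non-RGCs, with bounds entered as values. The median log2 difference over all genes tested was -0.0024 in RGCs and -0.026 in non-RGCs. Every mKO library was above every WT library for 7 of the 10 genes in RGCs, where this held for 24.8% of the 16085 genes tested, and for 9 of 10 in non-RGCs, where it held for 17.5% of 15326. Rpe65 was among the 9 on no more than 2 reads. The shares of all genes cover only those that reached the filter given below. Of the pigment cell genes that reached it, 6 of 8 in RGCs and 8 of 9 in non-RGCs did not overlap. These counts follow from how the genes were chosen and nothing is read from them. A mean of at least 10 normalized reads in either group, the filter for the tests of other genes, was reached by 8 of the 10 genes in RGCs (not Mlana and Rpe65) and by 9 in non-RGCs (not Rpe65). The log2 difference was the larger in non-RGCs for Tyr, Tyrp1, Dct, Pmel, Mitf, Mlana, Slc45a2 and Ttr; whether the fractions differed in it was not tested, because both comparisons had served to choose the genes.

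The comparison of RGCs with non-RGCs had not been used to choose the genes and asks in which fraction pigment transcripts lay. For it the reads of all 12 libraries were scaled together, since the authors had normalized the tables separately, and limma was run on log2(normalized reads + 1) with the mean of the RGC groups set against the mean of the non-RGC groups. Of the 9 genes tested, 7 were lower in RGCs with an adjusted p under 0.05, beside 31.6% of all 16502 genes tested called lower in RGCs. Rpe65 was too low to be tested.

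Pmel was lower in RGCs by a log2 difference of -1.50 ± 0.161 (SE), which is 2.82-fold (adjusted p = 3.42e-06, limma). On the joint scale its values ran from 218 to 331 in mKO RGCs against 829 to 940 in mKO non-RGCs, and from 96.4 to 154 in WT RGCs against 206 to 342 in WT non-RGCs, without overlap within a genotype. The melanin enzymes followed, with Dct at -1.52 ± 0.216 (adjusted p = 4.12e-05), Tyrp1 at -1.52 ± 0.245 (adjusted p = 0.000118) and Tyr at -1.37 ± 0.306 (adjusted p = 0.00157). Dct overlapped between the fractions of WT, where 1 non-RGC library had 92.6 and 1 RGC library 95.4. Ttr was lower in RGCs by -1.53 ± 0.181 (adjusted p = 8.36e-06), Oca2 by -1.80 ± 0.304 (adjusted p = 0.000174) and Mlana by -1.13 ± 0.244 (adjusted p = 0.00121). Mlana had passed the filter only through mKO non-RGCs, so no support is drawn from its call. The fitted folds of the 7 genes, non-RGCs over RGCs, lay between 2.19 and 3.49; those of Oca2 and Mlana depend on the pseudocount, since WT RGCs were at the floor.

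Mitf and Slc45a2 were not called. Mitf differed by -0.16 ± 0.211 (adjusted p = 0.534), with an interval of 2 SE from -0.58 to 0.27. Slc45a2, a transporter with fewer reads, differed by 0.44 ± 0.349 (adjusted p = 0.286), with an interval from -0.26 to 1.14. The interval of Mitf leaves out differences as large as those of the melanin enzymes, whereas the means of Slc45a2 on the joint scale were 12.4 and 12.5 in mKO RGCs and non-RGCs and 8.32 and 4.49 in WT. With WT libraries alone, 5 genes were lower in RGCs: Tyrp1, Dct, Pmel, Oca2 and Ttr. Oca2 had then passed the filter only through WT non-RGCs, so no support is drawn from its call. Tyr was then at -1.06 ± 0.526 (adjusted p = 0.136), and Mlana and Slc45a2 did not reach the filter. With mKO libraries alone the 7 genes were called, Ttr with a log2 difference of -2.15 and Dct of -1.94. Mlana had then passed the filter only through mKO non-RGCs (26.8 against 8.30 in mKO RGCs), so no support is drawn from its call. The share of all genes called within 1 genotype is not given here, so nothing is read from the counts of 5 and 7.

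**Figure D3:**
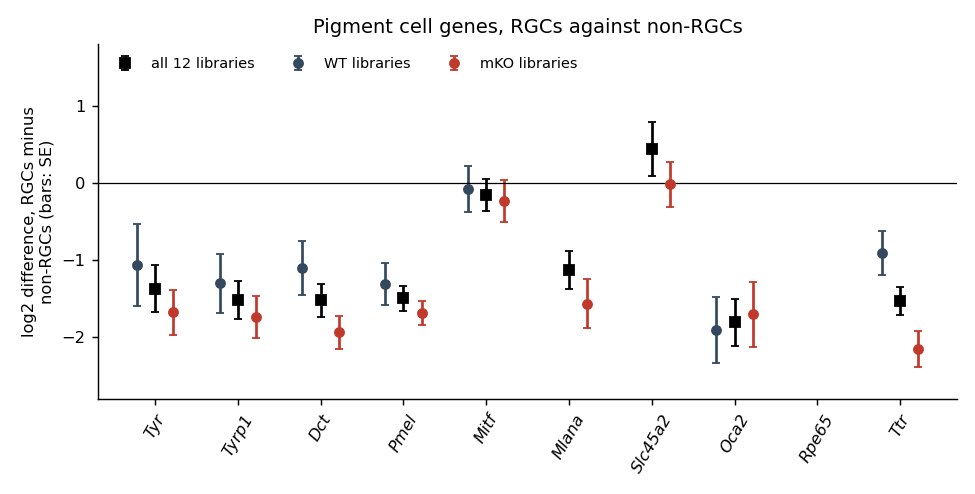
Log2 difference of RGCs minus non-RGCs with SE bars for each gene, from all 12 libraries (squares) and from WT or mKO libraries alone (circles). Values lie below 0 for 7 genes, close to 0 for Mitf, and above 0 for Slc45a2 with all libraries; Rpe65 has no value, and Mlana and Slc45a2 have none in WT alone.

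Levels can be compared between genes only per length. In reads per kilobase of exon, scaled to the reads on genes of each library (RPKM), mKO non-RGCs had Pmel at 37.2 ± 2.27 (SD, n = 3), followed by Ttr at 13.3 ± 1.61, Dct at 9.33 ± 1.32 and Tyrp1 at 7.11 ± 1.88. Mlana (2.46 ± 0.605), Mitf (1.67 ± 0.646), Tyr (1.34 ± 0.397) and Oca2 (1.15 ± 0.239) formed a lower run, with Slc45a2 at 0.408 ± 0.0426 and Rpe65 at 0.0952 ± 0.0525. Neighbours in this order whose libraries overlapped were Dct and Tyrp1, Mlana and Mitf, Mitf and Tyr, and Tyr and Oca2. In WT RGCs the order began with Pmel (4.26 ± 1.31), Ttr (1.62 ± 0.316), Dct (1.02 ± 0.325), Tyrp1 (0.885 ± 0.332) and Mitf (0.811 ± 0.145). Tyr stood at 0.0829 ± 0.0483 there, below Mlana (0.247 ± 0.0190) and Slc45a2 (0.228 ± 0.0903), so its place among the genes differed between these groups. Pmel took 31.7% to 45.05% of the reads of the 10 genes in every library. The share of Mitf was 3.28% to 6.81% in mKO non-RGCs and 12.3% to 23.9% in WT RGCs.

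Within groups, many of the genes also varied together from library to library, but not in every group or pair. In mKO RGCs, library A was the highest for all 9 genes other than Rpe65. In WT non-RGCs, library C was the lowest for 8 of the 9. In WT RGCs, library C was the highest for 5 of the 7 genes above the floor of 3 reads there, Mlana and Oca2 being left out. No library led in mKO non-RGCs, where A and C were each the highest for 4 genes and C was also the lowest for 5. Pearson's r of deviations from group means over the 12 libraries was 0.94 for Dct and Pmel, 0.84 for Pmel and Ttr and 0.81 for Dct and Tyrp1. At the other end it was -0.13 for Mlana and Oca2, -0.07 for Mitf and Ttr and 0.02 for Mitf and Pmel. Against the mean of the other genes, r was 0.91 for Dct, 0.82 for Pmel, 0.81 for Tyrp1, 0.70 for Ttr and 0.55 for Tyr. It was 0.53 for Oca2, 0.46 for Slc45a2, 0.43 for Mlana and 0.34 for Mitf. Each of these points shares a library's depth and cell make-up, and r is a description.

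**Figure D4:**
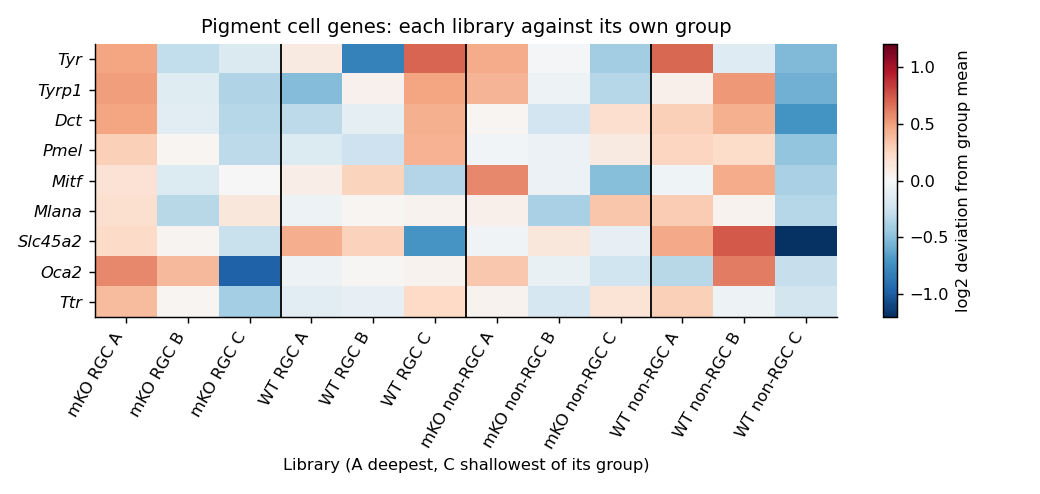
Log2 deviation of each gene in each library from the mean of its own group, red above and blue below. Columns mKO RGC A and WT RGC C are mostly red and column WT non-RGC C is blue for nearly every gene, while Mitf and Slc45a2 run the other way in WT RGC C.

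The genes whose deviations were most like the mean of the pigment cell genes, over 12 libraries, were Plekho2 (r = 0.962), Plekhf1 (0.946), Cd180 (0.939), Impg1 (0.935), Gm11546 (0.932), Ctla2b (0.929), Tnfrsf12a (0.921), Ppp1r3c (0.920), Abca4 (0.920) and Car3 (0.916). None of them belonged to the lists of pigment cell genes used here. Impg1, a proteoglycan of the matrix between photoreceptors and pigment epithelium, and Abca4, a retinoid transporter, are known from this tissue, and Cd180 is a receptor of immune cells. They are the extremes of all genes tested in few libraries. Markers of other cells moved too, taken as the mean log2 deviation over the genes of each list. Their r with the pigment cell genes was -0.81 for RGC markers, 0.79 for microglia, 0.74 for endothelial cells, 0.67 for lens, 0.54 for photoreceptors, 0.38 for mesenchyme, 0.18 for blood and -0.07 for progenitors.

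A further 76 genes of pigment cells and their neighbours were then tested between mKO and WT (limma, Benjamini-Hochberg over all genes, adjusted p under 0.05). In RGCs, 8 of 67 tested were higher in mKO and 11 were lower, beside 16.3% and 21.2% of all genes, with a median log2 difference of 0.08. In non-RGCs, 9 of 67 were higher and 4 were lower, beside 4.18% and 6.43% of all genes, with a median of 0.11. With scaling to total reads, which moved the median log2 difference of all genes to 0.12 in RGCs and 0.15 in non-RGCs, the split was 12 higher and 5 lower in RGCs and 13 higher and 0 lower in non-RGCs. Under that scaling, 23.9% of all genes were called higher and 13.9% lower in RGCs, and 8.78% and 2.95% in non-RGCs.

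Among 30 other melanosome genes, 27 were tested in RGCs, where 7 were higher and 7 lower. Trpm1, a cation channel listed here with the melanosome genes, had 134, 112 and 115 normalized reads in mKO RGCs. It had 81.1, 65.1 and 57.2 in WT RGCs, and rose by 0.83 ± 0.182 (SE, adjusted p = 0.0117, limma). Whether its reads came from pigment cells or from other retinal cells was not tested. Hps3, a subunit of a complex that traffics cargo to melanosomes, rose by 0.75 ± 0.110, and Slc24a5, an ion exchanger of the melanosome pathway, by 0.64 ± 0.204. Bloc1s1, Hps6 and Bloc1s4, likewise subunits of complexes that traffic cargo to melanosomes, fell by 1.34, 0.60 and 0.42. Complexes of this kind, that of Hps3 included, also serve lysosomes of other cells. Of these 6 genes, Trpm1, Hps3 and Bloc1s1 were still called once the trend with GC content was removed. Leaving out each of the 6 libraries in turn, Slc24a5 and Hps6 lost their call 5 times, Bloc1s4 2 times (without mKO library A or C) and Trpm1 1 time (without mKO library A, adjusted p = 0.0546, limma), and Hps3 and Bloc1s1 0 times.

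In non-RGCs, 2 of 28 tested melanosome genes were higher and 1 was lower. Trpm1 had 220, 183 and 158 normalized reads in mKO and 50.5, 56.1 and 35.5 in WT, well apart, and rose by 1.97 ± 0.254 (adjusted p = 0.00603). Gpnmb, a glycoprotein related to Pmel, had 130, 95.9 and 77.7 in mKO and 30.7, 29.03 and 22.9 in WT, and rose by 1.82 ± 0.285 (adjusted p = 0.0086). Ap3d1, a subunit of the AP-3 adaptor, fell by 0.48. The rise of Trpm1 was smaller in RGCs by 1.14 ± 0.322, but this difference was not called (adjusted p = 0.461, limma interaction). Gpr143, the melanosome receptor of ocular albinism, did not reach the filter and was not tested. It had 6.16, 10.5 and 9.89 normalized reads in mKO non-RGCs and 3.61, 0.968 and 1.04 in WT. This gene is named outside the rule for named genes.

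Among 22 other pigment epithelium genes, 19 were tested in each fraction, and 1 was higher and 1 lower in RGCs and 4 higher and 1 lower in non-RGCs. Clic6, a chloride channel protein, had 47.1, 26.7 and 26.3 normalized reads in mKO RGCs and 9.12, 13.0 and 11.7 in WT RGCs, and rose by 1.45 ± 0.317 (adjusted p = 0.0117). In non-RGCs, Clic6 had 125, 61.4 and 38.1 in mKO and 22.6, 19.4 and 15.6 in WT, and rose by 1.76 ± 0.420 (adjusted p = 0.0309). Rgr, an opsin of pigment epithelium and Müller cells, had 116, 72.9 and 100.3 in mKO non-RGCs against 41.5, 22.3 and 26.1 in WT, and rose by 1.68 ± 0.315 (adjusted p = 0.0153). Krt8, an epithelial keratin, rose there by 1.48 ± 0.396 (adjusted p = 0.0432), a call lost on leaving out any of the 6 libraries. It had passed the filter only through mKO non-RGCs (23.9 to 26.9 normalized reads, against 5.21 to 12.6 in WT), so no support is drawn from it. Otx2, a transcription factor of pigment epithelium and photoreceptors, fell by 0.45 in RGCs and 0.48 in non-RGCs. Rlbp1, a retinoid-binding protein of pigment epithelium and Müller cells, had 681 to 931 normalized reads in mKO non-RGCs and 449 to 1238 in WT, which overlapped; it is named as a defining marker. Clic6 and Otx2 are also the genes called, in the same directions, among 7 choroid plexus genes other than Ttr.

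Of 8 genes of neural crest melanocytes, 7 were tested in non-RGCs. There 1 was higher and 1 lower, beside 4.18% and 6.43% of all genes. Kitl, the ligand of the Kit receptor, rose by 1.04 ± 0.243 and Kit itself, which retinal cells also express, fell by 0.67 ± 0.167. In RGCs, 6 were tested and 0 were called by limma or with voom weights, with 1 at an unadjusted p under 0.05. Sox10, the defining neural crest factor, had 16.9 to 24.9 normalized reads in mKO non-RGCs and 14.6 to 65.8 in WT, and Pax3 was at 0 in 9 of the 12 libraries and at most at 2.82 normalized reads in the rest; both are named as defining markers. Of the factors related to Mitf, Tfeb fell by 0.95 ± 0.282 and Tfe3 by 0.19 ± 0.0621 in RGCs, but with the GC trend removed Tfeb was at -0.37 (adjusted p = 0.417, limma) and the direction of Tfe3 turned. Among 8 genes of ciliary margin and iris, Wls, a Wnt secretion protein, rose by 2.22 ± 0.459 and Bmp4, a growth factor, by 1.65 ± 0.459 (adjusted p = 0.0495) in non-RGCs, Cdon fell there by 0.57, and Mab21l2 fell by 0.40 in RGCs. The call of Bmp4 was lost with a pseudocount of 0.5, with no filter, with the GC trend removed and without 4 of the 6 libraries (adjusted p up to 0.136, limma), and that of Wls with the GC trend removed or without mKO library B.

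**Figure D5:**
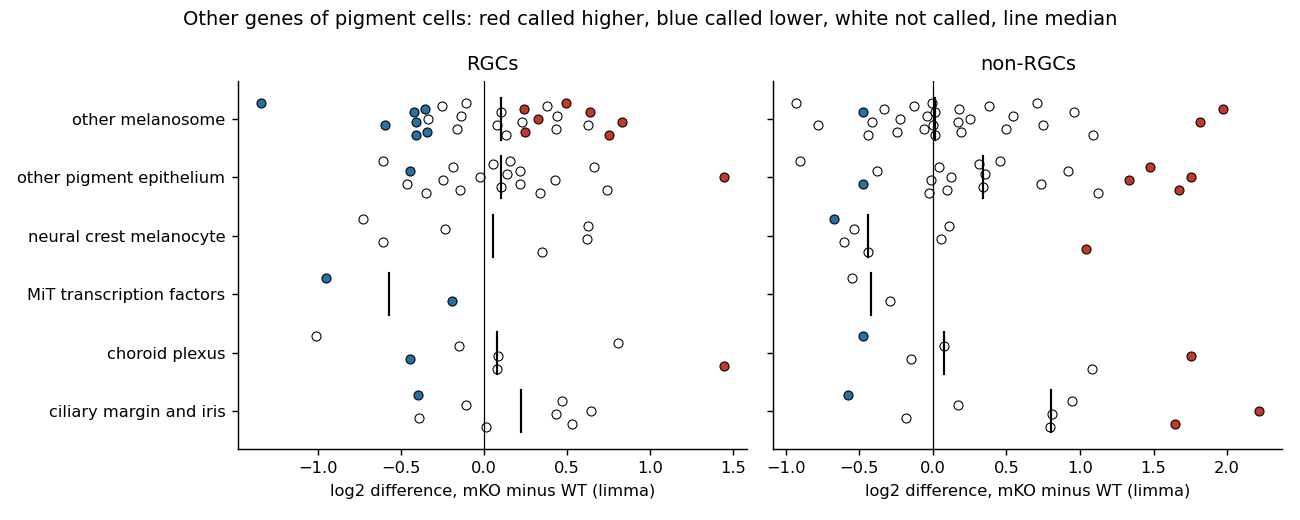
Fitted log2 difference (mKO minus WT) of each other gene of pigment cells by list, in RGCs (left) and non-RGCs (right); red points were called higher, blue points lower, white points were not called, and vertical lines are medians. Points called higher in non-RGCs lie at about 1 and above, and those called lower between 0 and -1.

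Without mKO library B, 8 of the 9 genes called higher in non-RGCs were not called (adjusted p 0.0567 to 0.167, limma), and Trpm1 was the exception. The fitted log2 differences of these 8 genes then ran from 0.97 (Kitl) to 2.19 (Wls), against 1.04 and 2.22 with all libraries. The largest move was that of Rgr, from 1.68 to 1.86. The share of all genes called in that leave-out is not given here, so nothing is read from the lost calls. Of the 6 leave-outs, the calls in non-RGCs were lost in 5 for Otx2, in 4 for Clic6, Kitl and Kit, in 3 for Ap3d1 and Cdon, and in 2 for Rgr, and in RGCs in 5 for Tfe3, 4 for Tfeb and 3 for Otx2. Between fractions, Gpnmb (-1.24 ± 0.273), Rgr (-1.24 ± 0.242) and Clic6 (-0.94 ± 0.284) were called lower in RGCs by limma, whereas Kitl was far higher in RGCs (3.10 ± 0.158). Trpm1 (-0.13 ± 0.161, adjusted p = 0.503, limma), Wls (0.89 ± 0.412) and Bmp4 (-0.94 ± 0.417) were not called between fractions. Over the 76 genes, 70 were tested, with 18 higher and 24 lower in RGCs, beside 32.7% and 31.6% of all genes.

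Markers of some other cells moved with genotype as well. Of 6 blood genes, mostly globins, 5 were tested and 5 were called higher in mKO in both fractions. Their summed normalized reads were 284 to 345 in mKO RGCs and 121 to 137 in WT RGCs, and 564 to 866 in mKO non-RGCs and 129 to 213 in WT non-RGCs. Of 11 RGC markers, 10 were lower in mKO RGCs (sums 22298 to 23416 against 31309 to 33628 in WT), and 7 were higher in mKO non-RGCs (sums 5952 to 8164 against 5629 to 5967). Of 8 photoreceptor markers, 4 were lower in mKO RGCs and 5 in mKO non-RGCs. Of 8 progenitor markers, 3 were lower in mKO RGCs and 0 in mKO non-RGCs. Among the endothelial, lens and microglia markers, 0 were called in either fraction. Of all genes tested, 16.3% were called higher and 21.2% lower in mKO RGCs, and 4.18% and 6.43% in mKO non-RGCs. Summed mesenchyme markers ran from 456 to 16231 in WT RGCs, 734 to 7129 in mKO RGCs, 516 to 7052 in WT non-RGCs and 490 to 923 in mKO non-RGCs, so that single libraries stood apart; library B was the highest of both WT groups. Letters give the rank of depth within a group, so library B of WT RGCs and library B of WT non-RGCs need not be matched samples. Leaving library B out of the WT group gave the 10 genes a median log2 difference of 0.99 in RGCs and 1.82 in non-RGCs. With it the medians were 1.02 and 1.71. The part of RNA from any of these other cells, mesenchyme included, in the differences of the pigment cell genes was not tested.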

How the data were processed

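RNA-seq of RGCs and non-RGCs of P0 mKO and WT pups was used, with 3 libraries in each of 4 groups, assigned by their labels. Per the submitters' processing notes, reads were aligned to mm10 with STAR 2.3.1z4 and counted with featureCounts. The deposited signal is a mean that the authors took, for each gene, over the 3 libraries of a group after dividing counts by a DESeq size factor. The deposited ratio (WT over mKO), its log2 value and p-values hold the authors' own comparison and were not used. Columns of per-sample values left unused numbered 0.

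Library reads were recovered as the whole numbers that give each deposited mean; 100% of genes with reads were recovered in 3 groups, and 5 of 22931 in WT non-RGCs had several solutions, of which the most even was taken. Size factors recomputed from these reads differed from those recovered by a relative 3.5e-10 at most. limma 3.58.1 in R 4.3.3 with a mean-variance trend was run on log2(normalized reads + 1) for every gene whose mean reached 10 in any compared group, with Benjamini-Hochberg adjustment; a fold on this scale understates the change of low genes. It was tested on simulated data. The floor was 3 reads per library.

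Gene positions are from GENCODE M21 on GRCm38. The genes and lists were chosen with earlier results of these data known. Named besides the 10 genes and Ezh2 were, per list, fraction and direction, the 3 called genes of largest log2 difference, and the 10 genes of most similar deviations. Alternatives were another pseudocount (0.5), scaling to total reads, no filter, voom weights, removal of the trend with GC content, the threshold of p under 0.05 with a fold of 1.5, 1 genotype alone, and leaving out each library.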

Additional observations from a re-analysis of the deposited data

How the results depend on the processing

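No paired analysis was possible because the recovered libraries carry no replicate number. The median log2 difference of the 10 pigment cell genes between mKO and WT was 1.02 in RGCs (0.84 to 1.22 leaving out each library) and 1.71 in non-RGCs (1.46 to 1.82), and 7 genes were lower in RGCs than in non-RGCs whichever library was left out. With all libraries, 31.6% of all genes tested were called lower in RGCs, and no support is drawn from the call of Mlana. Without each library in turn, the other pigment genes called higher in RGCs numbered 3 to 14 (3 without mKO library A or B, 4 without mKO library C, 5 without WT library A and 14 without WT library C). Those called lower numbered 5 to 13 (5 without mKO library A or C and 6 without B). In non-RGCs those called higher numbered 1 to 8 (1 without mKO library B, 4 without A and 5 without WT library B), and those called lower 0 to 5 (0 without mKO library B or WT library A or B). With the GC trend removed, these counts were 3 higher and 4 lower in RGCs and 4 higher and 0 lower in non-RGCs. Scaling to total reads gave 5 lower in RGCs and 0 lower in non-RGCs, beside 13.9% and 2.95% of all genes. The threshold of p under 0.05 with a fold of 1.5 gave 4 higher and 4 lower in RGCs and 16 higher in non-RGCs. Except for scaling to total reads, the share of all genes called under these settings is not given here. Nothing is therefore read from the changes in these counts. Tfe3 turned to 0.12 (adjusted p = 0.207, limma) in RGCs with the GC trend removed. The cause of these shifts was not tested. Few reads limit Mlana, Slc45a2, Oca2 and above all Rpe65.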
